A study of Sus scrofa with 8 samples.

Results

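Small heat shock proteins are small chaperones built around an alpha-crystallin domain. They assemble into oligomers that hold partly unfolded proteins in a soluble state without using ATP, and pass them on to HSP70 chaperones. In skeletal muscle they are known for protecting the actin, desmin and filamin networks of the contractile apparatus, and several are more abundant in slow oxidative fibres than in fast ones. BAG3 is their co-chaperone: it joins HSPB8 to HSP70 and directs damaged filament proteins to autophagy.

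The genes described here are the rows of the deposited gene table whose symbol is HSPB1, HSPB2, HSPB3, HSPB6, HSPB7, HSPB8, CRYAB or BAG3. Of the 8 symbols, 7 had a row among 23235 genes, and HSPB2 was not analysed here. The 6 small heat shock protein genes and BAG3 all passed the filter on low values, a mean of at least 1 FPKM over the 8 libraries (FPKM scales fragments by gene model length and library size).

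The muscle is the longissimus dorsi, the long muscle of the back, from weaned Duroc x Landrace x Yorkshire piglets. Animals aged 28 days were randomised, 6 per group, and after 5 days of adaptation received a daily gavage for 23 days, either melatonin at 5 mg per kg body weight in 10 mL of sterile saline, or the same volume of saline. Both groups had the same basal diet and were fasted before dosing. Poly(A) RNA was sequenced in 4 control (saline) and 4 melatonin libraries, each read as 1 piglet although its label carries no animal, only a group and a number. The p-values below therefore measure the spread between these samples.

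Total counts ran from 53471667 to 60629098 per library, and each of the 7 genes had between 505 and 45848 counts in every library, so counting error was small beside the spread between libraries. The markers of the labelled tissue were abundant: the 10 skeletal muscle markers with a row summed to 94743 to 111920 FPKM in controls and 79801 to 103530 after melatonin. Melatonin replicates 1 and 3 stood apart in some connective tissue genes. The 10 fibroblast and matrix markers summed to at most 990 FPKM in controls and reached 8603 after melatonin. The largest values were those of COL1A1 (3457 and 913 FPKM in melatonin replicates 1 and 3) and COL1A2 (3550 and 908). In melatonin replicate 3, COL3A1, COL5A1, LUM and POSTN lay below control replicate 1. Melatonin replicate 2 stood apart in slow fibre genes: the mean of the 11 slow fibre markers lay 2.54 below the control mean on the log2 scale of CPM, counts scaled to library size. The deposited FPKM values carry no correction for composition, while the tested log2 CPM values are scaled by TMM factors that ran from 0.851 (control replicate 2) to 1.19 (melatonin replicate 3). The order of close libraries can therefore differ between the scales. In bulk muscle, fewer cells of a type and less RNA per cell cannot be told apart.

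The comparison asks whether oral melatonin changed the muscle's expression of these chaperones. None of the 7 genes passed the test: edgeR's quasi-likelihood test, fitted over 9821 genes with Benjamini-Hochberg adjustment, called 0 of them (smallest adjusted p = 0.579, for HSPB7). It also called 0.0% of all genes at that threshold. At an unadjusted p under 0.05 it gave 0 of the 7, against 10.5% of all genes, and DESeq2 called 0 of the 7 at its adjusted threshold, against 0.662% of all genes. The FPKM values of the groups overlapped for 7 of 7 genes, while 2.2% of all genes tested had groups that did not overlap. On log2 CPM the groups also overlapped for 7 of 7, and 4.27% of all genes had groups that did not. The estimated log2 fold changes, melatonin over control, lay below 0 for 5 genes and above 0 for 2, with a median of -0.23 beside -0.001 over all genes tested.

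HSPB6 was the most abundant of the 7 per length. It encodes the muscle chaperone also called Hsp20 (ENSSSCG00000023498, Sscrofa11.1 chromosome 6, 45181443 to 45183998, minus strand). It measured 562, 218, 342 and 218 FPKM in control replicates 1 to 4 and 398, 168, 355 and 247 FPKM in melatonin replicates 1 to 4. Control replicate 1 was the highest and melatonin replicate 2 the lowest of the 8, and the other 6 libraries of both groups were interleaved. The means were 335 ± 162 and 292 ± 104 FPKM (SD, n = 4 per group), a log2 fold change of -0.30 ± 0.31 (SE, edgeR adjusted p = 0.721). Without control replicate 1 the estimate was 0.04.

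CRYAB encodes alpha-B crystallin, a chaperone of desmin whose mutations cause a desmin-storage myopathy (ENSSSCG00000036724, chromosome 9, 39638506 to 39643162, minus strand). It measured 276, 145, 119.6 and 103 FPKM in controls and 125, 53.4, 334 and 101 FPKM after melatonin. The melatonin libraries held both the highest value, in replicate 3, and the lowest, in replicate 2. The highest was 6.25 times the lowest. The means differed little, at 161 ± 78.4 and 153 ± 124 FPKM (SD, n = 4), and the log2 fold change was -0.23 ± 0.47 (edgeR adjusted p = 0.871). It depended on single libraries: it was 0.12 without control replicate 1, 0.03 without melatonin replicate 2 and -0.82 without melatonin replicate 3.

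On the opposite strand CRYAB overlaps ENSSSCG00000015027, an unnamed gene at 39623884 to 39660648 with a mean of 6.94 FPKM, and no source used here says whether counting used strand. The interval that RefSeq's annotation of Sscrofa11.1 gives for HSPB2 (chromosome 9, 39640117 to 39644104) lies within that unnamed gene and in part within CRYAB. The unnamed gene stayed between 5.87 and 8.52 FPKM in the 8 libraries, and no source pairs it with a symbol.

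HSPB8 and BAG3 act together in chaperone-assisted selective autophagy, in which HSPB8, HSP70 and the ubiquitin ligase STUB1 are brought to a damaged client by BAG3. HSPB8 (ENSSSCG00000009844, chromosome 14, 33626120 to 33640792, minus strand) measured 128, 218, 177 and 121 FPKM in controls and 159, 82.1, 171.5 and 165 FPKM after melatonin. Of the melatonin libraries, 3 lay close together within the control range, and replicate 2 lay below every control. Its log2 fold change was -0.28 ± 0.29 (edgeR adjusted p = 0.731). It was -0.11 without melatonin replicate 2 and -0.00 without control replicate 2.

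BAG3 (ENSSSCG00000010686, chromosome 14, 129466905 to 129533987, plus strand) measured 26.6, 26.5, 26.6 and 19.15 FPKM in controls and 34.1, 24.0, 43.5 and 23.6 FPKM after melatonin. The first 3 controls were almost equal, and on FPKM melatonin replicates 1 and 3 lay above all controls while replicates 2 and 4 lay within their range. On log2 CPM only melatonin replicate 3 did, since replicate 1 (0.20 above the control mean) lay below control replicate 2 (0.31 above it). BAG3 had the highest estimate of the 7, 0.21 ± 0.18 (edgeR adjusted p = 0.668), at means of 24.7 ± 3.71 and 31.3 ± 9.48 FPKM (SD, n = 4). The same 2 melatonin libraries had the highest levels of fibroblast and matrix markers; the part of those markers in the BAG3 value was not tested. Without these 2 libraries the estimate was 0.04. The start of the BAG3 gene model overlaps TIAL1 on the opposite strand, at a mean of 9.52 FPKM. RefSeq's annotation of the same build starts BAG3 at 129510240, so the model reaches outside the RefSeq span. Its counts can hold reads from outside that span, and their part was not tested.

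HSPB1, known as Hsp27, is a widely expressed chaperone of actin filaments and a substrate of stress kinases (ENSSSCG00000039962, chromosome 3, 10037949 to 10039704, minus strand). It measured 70.5, 61.0, 82.1 and 36.1 FPKM in controls and 119.7, 34.1, 109 and 35.7 FPKM after melatonin. The melatonin libraries fell into a high and a low pair, and on FPKM replicates 1 and 3 lay above every control and replicates 2 and 4 below every control. On log2 CPM the high pair was still above every control, but control replicate 4 (-0.80 from the control mean) lay below replicates 2 (-0.74) and 4 (-0.58). The means were 62.4 ± 19.5 and 74.7 ± 46.2 FPKM (SD, n = 4), and the log2 fold change was 0.08 ± 0.37 (edgeR adjusted p = 0.947). The high pair is again the one with the highest mean of the fibroblast and matrix markers. In melatonin replicates 1 and 3 that mean lay 2.25 and 0.92 above the control mean. In melatonin replicates 2 and 4 it lay 0.06 and 0.14 above, and in control replicate 1 it lay 0.60 above. The part of these markers in the HSPB1 value was not tested. Without the high pair the HSPB1 estimate was -0.73.

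HSPB7, first described as a cardiovascular heat shock protein, binds filamin C (ENSSSCG00000041935, chromosome 6, 75166992 to 75175013, minus strand). It measured 37.0, 8.25, 13.9 and 15.1 FPKM in controls and 11.6, 3.39, 22.1 and 9.94 FPKM after melatonin. Control replicate 1 was far above the other controls and melatonin replicate 2 far below all other libraries, and the highest value was 10.9 times the lowest. HSPB7 had the lowest estimate of the 7, -0.77 ± 0.51 on the log2 scale (edgeR unadjusted p = 0.159, adjusted p = 0.579), and it was -0.22 without control replicate 1, -1.16 without melatonin replicate 3 and -1.31 without melatonin replicates 1 and 3. Counts and FPKM together imply a gene model of 5906 bases, against a genomic span of 3412 bases for HSPB7 in RefSeq's annotation of the same build. Its FPKM, and so its place in the order of levels, depends on that long model. The model reaches outside the RefSeq span, so its counts can hold reads from outside it, and their part in the differences between libraries was not tested.

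HSPB3, the partner of HSPB2 in a muscle-specific complex, had the lowest mean FPKM of the 7 (ENSSSCG00000036059, chromosome 16, 33716626 to 33719018, plus strand). It measured 5.51, 3.51, 4.82 and 5.71 FPKM in controls and 5.87, 4.52, 7.13 and 3.34 FPKM after melatonin. The lowest and the highest of the 8 values were both from melatonin libraries, and the log2 fold change was -0.01 ± 0.17 (edgeR adjusted p = 0.983), with the narrowest interval of the 7. Its sign turned with small changes of method: limma on log2(FPKM + 1) gave 0.06, where the median of all genes was 0.063, edgeR with a filter at a mean of 5 FPKM gave 0.04, and leaving out melatonin replicate 4 gave 0.09. Counts and FPKM imply an HSPB3 gene model of 2393 bases, against a span of 945 bases in RefSeq. The model reaches outside the RefSeq span, so the FPKM of HSPB3 and its place below HSPB7 depend on that model. The part of reads from outside the span was not tested.

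**Figure D1:**
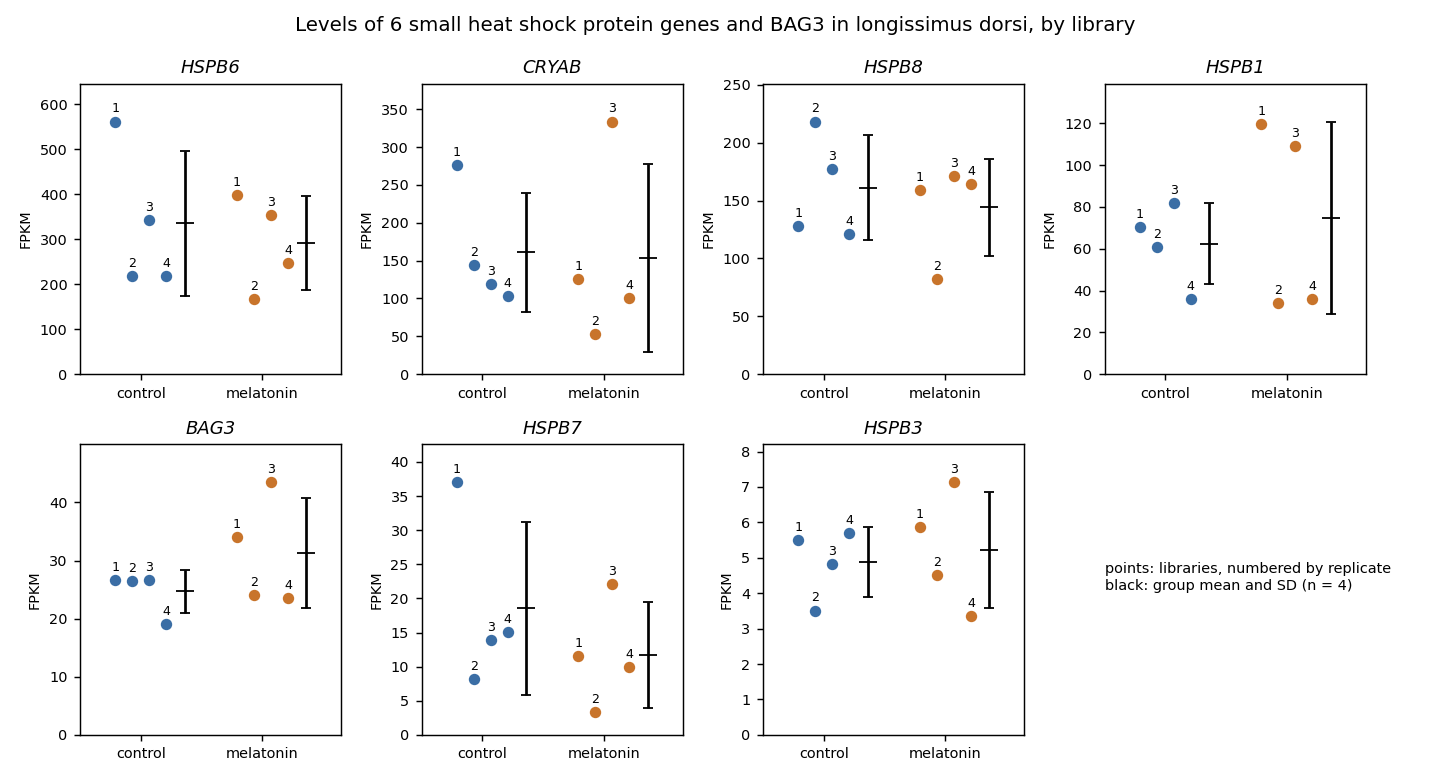
FPKM (vertical axes, each from 0) of HSPB6, CRYAB, HSPB8, HSPB1, BAG3, HSPB7 and HSPB3 in 4 control and 4 melatonin libraries, points numbered by replicate, with the group mean and SD in black. The groups overlap in every panel, and melatonin replicate 2 is the lowest point for HSPB6, CRYAB, HSPB8, HSPB1 and HSPB7.

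In order of mean FPKM the genes ran HSPB6 (314), CRYAB (157), HSPB8 (153), HSPB1 (68.6), BAG3 (28.0), HSPB7 (15.2) and HSPB3 (5.05). CRYAB and HSPB8 were neighbours that did not separate: CRYAB was the higher in control replicate 1 and melatonin replicate 3, and HSPB8 in the other 6 libraries. HSPB6 lay above CRYAB, HSPB8 above HSPB1 and HSPB1 above BAG3 in 8 of 8 libraries. BAG3 lay above HSPB7 in 7 of 8, with control replicate 1 the exception, and HSPB7 above HSPB3 in 7 of 8, with melatonin replicate 2 the exception. Together the 7 genes summed to 1105, 681, 766 and 519 FPKM in controls and 854, 369, 1042 and 586 FPKM after melatonin, between 0.0978% and 0.291% of all FPKM in a library. Control replicate 1 and melatonin replicate 3 had the highest sums and melatonin replicate 2 the lowest.

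For the 3 most abundant genes, the mean shares of this sum in the groups lay within 1 SD of each other. HSPB6 supplied 42.4 ± 7.82% in controls and 42.1 ± 5.68% after melatonin, HSPB8 22.5 ± 8.41% and 21.4 ± 5.10%, and CRYAB 20.4 ± 3.86% and 19.6 ± 8.38% (SD, n = 4). BAG3 supplied 3.37 ± 0.665% and 4.67 ± 1.22%. Single libraries departed from these means: CRYAB reached 32.0% in melatonin replicate 3, and HSPB8 took 11.6% in control replicate 1 and 32.1% in control replicate 2.

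**Figure D2:**
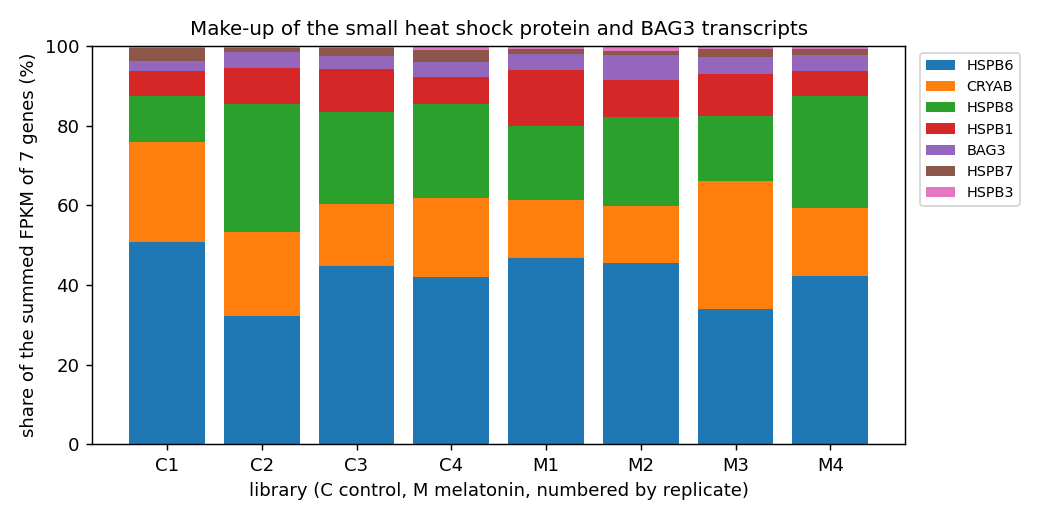
Share of the summed FPKM of the 7 genes (vertical axis, percent) supplied by each gene in each library (C, control; M, melatonin). HSPB6 is the largest or equal largest share in all 8 libraries, between 32.1% and 50.8%, and the HSPB8 and CRYAB shares trade places between libraries.

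The limits on what these 8 libraries could show are given by the 95% intervals of the edgeR estimates. For HSPB3 the interval ran from 0.759-fold to 1.30-fold and for BAG3 from 0.873-fold to 1.54-fold. For HSPB7 it ran from 0.266-fold to 1.28-fold and for CRYAB from 0.412-fold to 1.76-fold. Changes within those intervals could not be resolved with 4 libraries per group, and a missed threshold does not show equal expression.

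The width of these intervals follows the spread between libraries of 1 group, as edgeR models it over all genes. The parts of animal, tissue make-up and preparation in that spread were not tested. On the log2 CPM scale the within-group SD was 0.90 for HSPB7, larger than in 96.8% of the genes tested, 0.80 for CRYAB (95.6%) and 0.67 for HSPB1 (92.4%). HSPB6 (0.51, 84.6%) and HSPB8 (0.48, 82.7%) were also above the median gene, which had an SD of 0.28. BAG3 (0.27, 47.5%) and HSPB3 (0.23, 36.5%) lay below it. Of the 7 genes, 5 thus varied more between libraries of 1 group than the median gene. On the same scale melatonin replicate 2 was the lowest library for 4 of these 5, and for HSPB1 control replicate 4 was.

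**Figure D3:**
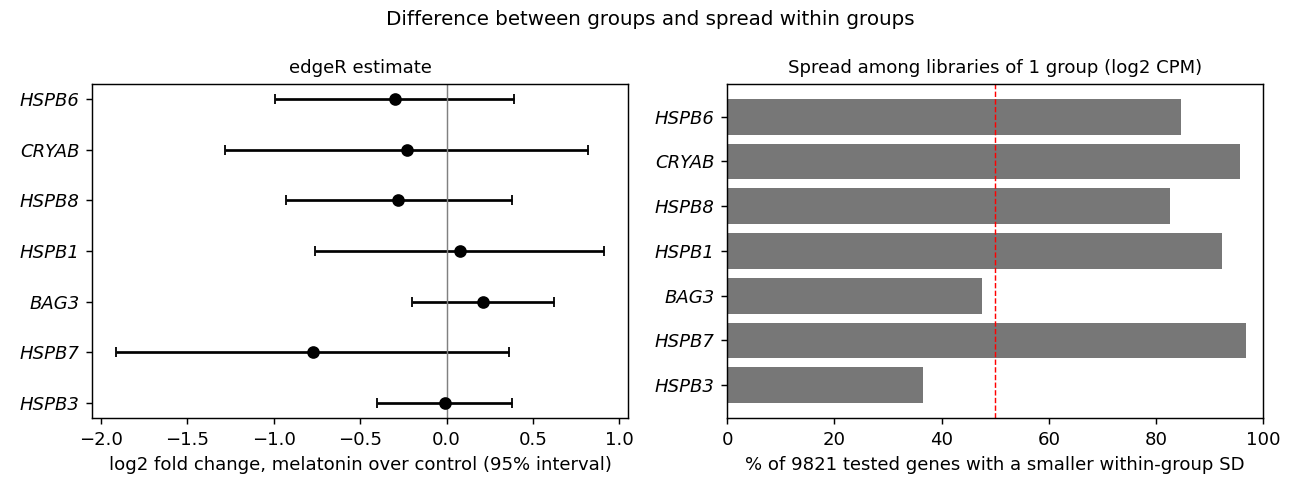
Left, log2 fold change of each gene, melatonin over control, with its 95% interval from edgeR. Right, percent of all 9821 tested genes whose within-group SD of log2 CPM is smaller (dashed line at the median gene). All 7 intervals include 0, and HSPB7, CRYAB and HSPB1 lie above 90% of genes in spread while BAG3 and HSPB3 lie below the dashed line.

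Over the 8 libraries the 7 genes gave 21 pairs, and 19 of the correlations of log2 CPM were above 0 (median Pearson r = 0.38, n = 8). No pair passed: 0 of 21 had a Benjamini-Hochberg adjusted p under 0.05 by two-sided exact permutation over all 40320 pairings, and 4 had an unadjusted p under 0.05. The closest pair was HSPB7 and CRYAB (r = 0.84, exact permutation p = 0.0128, adjusted p = 0.24, Spearman rho = 0.60, p = 0.132, adjusted p = 0.309). Next were HSPB6 and HSPB7 (r = 0.81, exact permutation p = 0.0284, adjusted p = 0.24, rho = 0.60, p = 0.132). Without control replicate 1 and melatonin replicate 2, the libraries farthest from the median, r was 0.49 for the first pair and -0.10 for the second (exact permutation p = 0.35 and 0.849). Neither relation was thus resolved without those 2 libraries, and leaving out extremes can lower r by itself.

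The other pairs with an unadjusted p under 0.05 did not pass either. HSPB6 and CRYAB had r = 0.70 (exact permutation p = 0.0496, adjusted p = 0.26, rho = 0.62, p = 0.115), and 0.10 without control replicate 1 and melatonin replicate 2. HSPB1 and BAG3 had a like r (r = 0.70, exact permutation p = 0.0343, adjusted p = 0.24, rho = 0.79, p = 0.0279, adjusted p = 0.309, n = 8), with r = 0.43 after control replicate 4 and melatonin replicate 2 were left out. On log2(FPKM + 1) this pair had r = 0.85 and passed (exact permutation, adjusted p = 0.0349). HSPB8 and BAG3, the partners in selective autophagy, had r = 0.39 (exact permutation p = 0.328, adjusted p = 0.625) and rho = 0.71 (p = 0.0576, adjusted p = 0.309). HSPB3 and HSPB8 had the lowest r, -0.60 (exact permutation p = 0.114, adjusted p = 0.398, rho = -0.60, p = 0.132). With 4 libraries per group, no correlation was computed within a group. With values centred on the group means, 0 of 21 pairs passed.

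**Figure D4:**
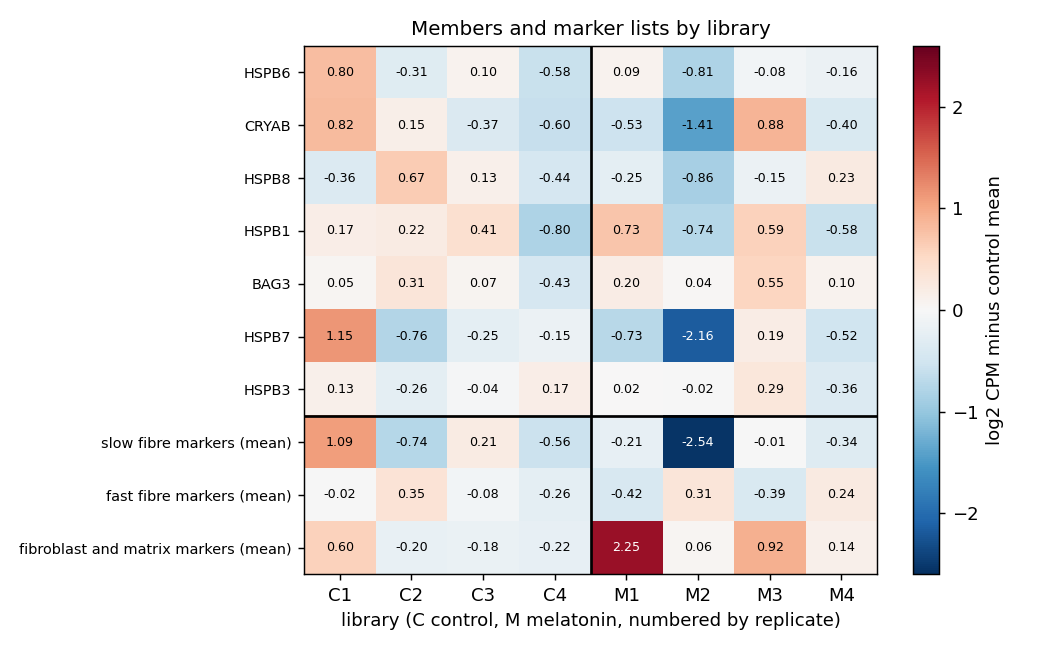
Log2 CPM minus the control mean (colour and printed value) of the 7 genes, and the mean of the same quantity over slow fibre, fast fibre and fibroblast and matrix markers, in each library (C, control; M, melatonin). Melatonin replicate 2 is at -2.16 for HSPB7 and at -2.54 for slow fibre markers, while fibroblast and matrix markers reach 2.25 in melatonin replicate 1.

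The order of the libraries was set against 3 marker lists, a comparison chosen after these values were seen, giving 21 relations of 7 genes with the mean log2 CPM of each list. How many of all the genes tested had an r of a given sign or size with these lists was not counted. Slow fibre markers had a correlation above 0 with 7 of the 7 genes. HSPB7 followed them closely (r = 0.94, two-sided exact permutation p = 0.00384, adjusted p = 0.0612, rho = 0.79, p = 0.0279, adjusted p = 0.293, n = 8), as did HSPB6 (r = 0.90, exact permutation p = 0.00583, adjusted p = 0.0612, rho = 0.95, p = 0.00114, adjusted p = 0.024). By Pearson r neither passed after adjustment over the 21 relations, and by rank HSPB6 passed. With values centred on the group means both passed (HSPB6 r = 0.90, permutation adjusted p = 0.0258, and HSPB7 r = 0.93, permutation adjusted p = 0.00469), as they did on log2(FPKM + 1) (permutation adjusted p = 0.0154 for both). The centred values were permuted freely across the groups, which takes no account of the centring. The centred p-values are therefore approximate and can be too small. Without control replicate 1 and melatonin replicate 2, r was 0.78 for HSPB6 (exact permutation p = 0.075, n = 6) and 0.49 for HSPB7 (p = 0.338). Neither passed without those 2 libraries, and the lower r was that of HSPB7. They are the extremes of the marker level, and leaving out extremes can lower r by itself.

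CRYAB had r = 0.77 with the slow fibre markers (exact permutation p = 0.0258, adjusted p = 0.18, rho = 0.64, p = 0.0962), and 0.15 without the same 2 libraries. Melatonin replicate 3, highest for CRYAB, had slow fibre markers at the control mean (-0.01). HSPB1, HSPB8, HSPB3 and BAG3 had r between 0.12 and 0.56. With fast fibre markers 6 of 7 genes had r below 0, the lowest for HSPB3 (r = -0.74, exact permutation p = 0.0371, adjusted p = 0.195, rho = -0.67, p = 0.0831). Left without control replicate 2 and melatonin replicate 1, that r was -0.78. The fast fibre mean was highest in control replicate 2 (0.35 from the control mean, TMM factor 0.851). It was lowest in melatonin replicates 1 and 3 (-0.42 and -0.39, TMM factors 1.18 and 1.19). The part of that scaling in the r with fast fibre markers was not tested. With fibroblast and matrix markers the highest was HSPB1 (r = 0.61, exact permutation p = 0.0855, adjusted p = 0.359, rho = 0.64, p = 0.0962), which was 0.09 without melatonin replicates 1 and 3.

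**Figure D5:**
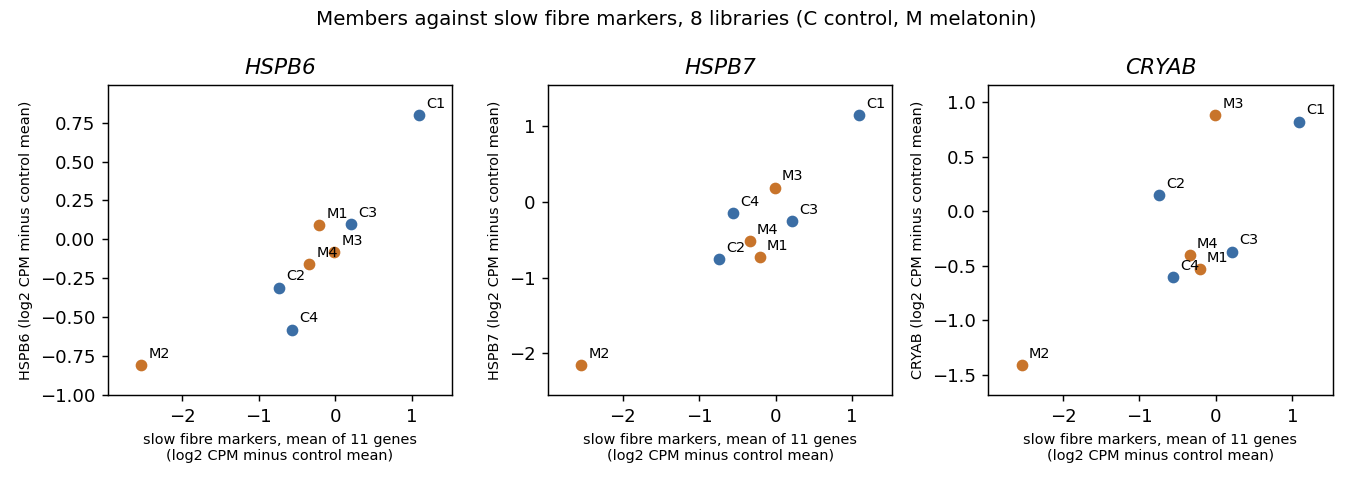
Log2 CPM minus the control mean of HSPB6, HSPB7 and CRYAB (vertical axes) against the mean of the same quantity over 11 slow fibre markers (horizontal axes) in 8 libraries (C, control; M, melatonin). Control replicate 1 and melatonin replicate 2 are the extremes of the horizontal axis, at 1.09 and -2.54, and for CRYAB melatonin replicate 3 lies well above libraries of like slow fibre level.

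By the mean standardised level of the 7 genes, 4 of the 5 most similar genes of 8908 with a symbol were MYL12A, a regulatory light chain of non-muscle myosin (r = 0.950), NUDT13 (0.928), MAPK1IP1L (0.922) and the small nucleolar RNA gene SNORD21 (0.901), over 8 libraries. These are among the highest of 8908 correlations and were not tested, so such values could also arise among unrelated genes. MYL12A measured 65.8, 31.4, 47.5 and 30.5 FPKM in controls and 42.9, 21.5, 70.9 and 31.6 FPKM after melatonin, with its lowest value in melatonin replicate 2. Set against the mean of the other 6 genes, so that no gene was compared with itself, CRYAB had the highest r (0.89) and HSPB3 the lowest (0.11).

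The heat shock transcription factors, which switch on many of these genes under stress, did not pass. Of 4 tested, 0 passed the adjusted test and 1 was higher at an unadjusted p under 0.05, against 6.67% of all genes higher and 3.84% lower. That gene was HSF2, at 5.27, 4.22, 5.81 and 3.76 FPKM in controls and 8.25, 6.31, 7.25 and 5.34 FPKM after melatonin (log2 fold change 0.41 ± 0.16, edgeR adjusted p = 0.453). HSF4 had -0.31 ± 0.21. Of the list's 4 estimates 1 lay above 0 and 3 below, and its median was -0.18. The shares of all genes given here also stand beside the counts at an unadjusted p under 0.05 of the lists below.

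The inducible chaperones of the same response gave 0 of 8 past the adjusted test, 1 of 8 (CHORDC1) higher at an unadjusted p under 0.05, and a median of -0.01. Their estimates lay above 0 for 4 genes and below 0 for 4. CHORDC1, an HSP90 co-chaperone, was at 0.41 ± 0.16 and HSPH1, the exchange factor of HSP70, at 0.63 ± 0.31 (edgeR adjusted p = 0.453 and 0.496). HSPH1 measured 1.79, 2.06, 1.31 and 1.72 FPKM in controls and 3.11, 1.49, 5.23 and 2.09 FPKM after melatonin. Its highest values were in melatonin replicates 3 and 1, the libraries where HSPB1 was also highest, on FPKM and on log2 CPM, and BAG3 on FPKM.

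Among the partners of BAG3 in selective autophagy, 0 of 11 passed the adjusted test and 1 was higher at an unadjusted p under 0.05, with a list median of -0.01. STUB1, the ubiquitin ligase of the complex, measured 46.6, 41.2, 44.5 and 46.0 FPKM in controls and 35.3, 36.9, 37.1 and 40.0 FPKM after melatonin. On FPKM every melatonin library lay below every control. On log2 CPM the groups overlapped, with melatonin replicate 4 at the control mean. The log2 fold change was -0.32 ± 0.15 (edgeR adjusted p = 0.496), and -0.10 without melatonin replicates 1 and 3. GABARAPL1, a protein of the autophagosome membrane, had 1.60 ± 0.45 (edgeR adjusted p = 0.440, DESeq2 adjusted p = 0.0345), with melatonin replicate 3 at 67.55 FPKM and replicate 4, at 8.95, within the control range. The other BAG proteins gave 0 of 2 past the test, with BAG6 at -0.16 and BAG1 at 0.01.

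Of 12 genes listed as filament and Z-disc clients of these chaperones, 9 had a row, and TTN, LDB3 and SYNM had none. Of the 9, 0 passed the adjusted test and 8 had a log2 fold change below 0, with a median of -0.21. Whether the chaperones act on each of them in this muscle was not tested. DES, which encodes desmin, the client of CRYAB, measured 1871, 1175, 1537 and 1317 FPKM in controls and 1507, 847, 1195 and 1162 FPKM after melatonin (-0.41 ± 0.21, edgeR adjusted p = 0.519). Like HSPB6, DES was highest in control replicate 1 and lowest in melatonin replicate 2. VIM, the intermediate filament gene of mesenchymal cells, was at 0.59 ± 0.35, with its highest values, 189 and 99.4 FPKM, in melatonin replicates 1 and 3.

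The slow fibre markers themselves gave 0 of 11 past the adjusted test, with 11 of 11 estimates below 0 and a median of -0.63. Of all 9821 genes, 4928 lay below 0. The 11 markers largely moved together, so they are not 11 separate results. Their mean stood at 1.09 from the control mean in control replicate 1 and at -2.54 in melatonin replicate 2. At an unadjusted p under 0.05, 1 was lower, MYH7B (-1.17 ± 0.45, edgeR adjusted p = 0.453), against 3.84% of all genes. Without control replicate 1 the MYH7B estimate was -0.68. The next was CASQ2 (-1.02 ± 0.57). The summed level of the 11 ran from 2395 to 11188 FPKM in controls and from 783 to 6813 FPKM after melatonin, and none of them was at 0. The part of slow fibre content in the estimates for HSPB6, HSPB7 and CRYAB was not tested. Fast fibre markers gave 0 of 12 past the test, with a median of -0.14, led by MYH2 (0.57 ± 0.43) and TNNT3 (-0.28 ± 0.27).

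Smooth muscle of vessel walls also holds HSPB1 and HSPB6. Its 9 tested markers, with pericyte markers among them, gave 0 past the adjusted test, 2 higher and 1 lower at an unadjusted p under 0.05, and the 10 with a row summed to 113 to 158 FPKM in controls and 109 to 170 FPKM after melatonin. LMOD1 (0.93 ± 0.29) and TAGLN (0.63 ± 0.23) had the smallest p, each with an edgeR adjusted p of at least 0.440. They do not stand for the list: of its 9 estimates 3 lay above 0 and 6 below, with a median of -0.20. Of the 9 tested fibroblast and matrix markers 0 passed and 5 were higher at an unadjusted p under 0.05, against 6.67% of all genes. Their median was 0.80. COL1A1 (2.98 ± 0.90) and COL1A2 (3.07 ± 0.94) led them, with their highest values in melatonin replicates 1 and 3. Without melatonin replicate 1 these estimates were 1.48 and 1.51, and without both libraries 0.19 and 0.11.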

How the data were processed

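RNA of 4 control and 4 melatonin libraries was compared. Per the file headers, the deposited table gives a count and an FPKM value per gene and library. Deposited count values are integers with no scaling. The deposited FPKM values follow the same counts, scaled per library and gene model. FastQC, StringTie, DESeq2 and Sscrofa11.1 are named in the submitters' processing notes, with no role. The aligner, annotation release and strand setting were not given in the sources used here. All value columns were mapped to a library (0 left over). Gene models' lengths were inferred from count, FPKM and total count, calibrated on the 100 rows at the commonest ratio of implied length to genomic span, taken as models of 1 exon. RefSeq intervals come from its table for Sscrofa11.1.

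Genes with a mean of at least 1 FPKM (9821) were tested on counts with TMM scaling by edgeR 4.0.16 under R 4.3.3, using the quasi-likelihood test in its legacy form, no covariate, and Benjamini-Hochberg adjustment at 0.05. The SE is the log2 fold change divided by the root of F, and intervals use its t quantile. Log2 CPM used a prior count of 2. Correlations were tested by exact permutation in Python 3.11.15 with NumPy 2.4.6, which is only approximate for values centred on group means. The edgeR fit was tested on simulated data. DESeq2 1.42.0, limma 3.58.1 on FPKM with pseudocounts of 1 and 0.1, other filters and scalings, a replicate block and libraries left out were the alternatives. No pair of libraries was a duplicate (smallest chi-square per degree of freedom 53.2).

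The members, the gene lists and the tests were chosen with earlier results of these data known. Named are all 7 genes, up to 4 adjusted calls of each list described (where a list had none, the 2 genes of lowest unadjusted p), and the 5 genes most similar to the members' mean level, of which 1 is not reported here. HSP70.2 was added to the inducible chaperones once HSPA1A and HSPA1B were found to have no row.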

Additional observations from a re-analysis of the deposited data

Results flagged for a closer look

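In 3 of 62 groups of 4 values tested, a single library lay far from the other 3 of its group by Dixon's test, which flags about 1 in 20 groups by chance. HSPB8 measured 82.1 FPKM in melatonin replicate 2, against 159 to 171.5 FPKM in the other melatonin libraries. BAG3 measured 19.15 FPKM in control replicate 4, against 26.5 to 26.6 FPKM in the other controls. LMOD1, a smooth muscle marker, measured 9.54 FPKM in control replicate 4, against 4.38 to 5.01 FPKM in the other controls. These gaps were 0.860, 0.992 and 0.878 of the group's range on FPKM, above the critical value. On TMM-scaled log2 CPM they were 0.559, 0.654 and 0.645, under it, so none of the 3 stood apart on that scale.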

How the results depend on the processing

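No member passed the adjusted threshold in edgeR under any alternative, in DESeq2 or in limma. Over all genes the count of 0 became 65 in DESeq2, and ranged from 0 to 15 with single libraries left out, 15 being without melatonin replicate 4. GABARAPL1 passed only in DESeq2 (1.60). With single libraries left out, log2 fold changes ran from -0.82 to 0.12 for CRYAB, -0.18 to 0.28 for HSPB1, -0.12 to 0.09 for HSPB3, -0.47 to 0.04 for HSPB6, -0.09 to 0.17 for BAG1, -0.01 to 0.41 for HSPB11, a protein of cilia despite its name, -0.09 to 0.08 for MAPK1IP1L, -0.48 to 0.04 for MYL12A, -0.29 to 0.03 for NUDT13 and -0.18 to 0.31 for SNORD21. Without melatonin replicates 1 and 3 together HSPB1 was -0.73, SNORD21 -0.59, VIM -0.08 and BAG1 -0.01, and with no filter BAG1 was -0.01. In limma, with either pseudocount, HSPB3 was 0.06 and MAPK1IP1L 0.04, and with a filter at a mean of 5 FPKM HSPB3 was 0.04. Pairs of members past the threshold went from 0 to 1 on log2(FPKM + 1). Members that followed slow fibre markers went from 0 to 2 on log2(FPKM + 1). Their number also went to 2 when centred on group means, where the permutation is only approximate. It stayed at 0 with each single library left out in turn. The share of all genes that followed these markers was not counted. The causes were not tested.

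With the replicate number as a block, 0 genes and 0 members passed, and 1061 genes against 1032 had an unadjusted p under 0.05. Same-numbered libraries shared deviations with r = 0.18, 0.07, 0.17 and -0.03, and control replicate 2 correlated best with melatonin replicate 4 (0.30). Control replicates 1 and 3 correlated best with the melatonin library of their own number, and control replicates 2 and 4 did not. These r values were not tested, so they do not decide whether same-numbered libraries were paired. Each member had at least 505 counts in every library.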

Other observations

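Markers of the other cell types a muscle sample holds were read from the same fit. Of 8 endothelial markers 0 passed the adjusted test in edgeR and 1 was higher at an unadjusted p under 0.05, with a median log2 fold change of -0.05. Macrophage and leukocyte markers gave 0 of 4 (median 0.38), adipocyte markers 0 of 7 (median 0.62), Schwann cell markers 0 of 4 (median -0.02) and erythroid markers 0 of 2 (median -0.75), at either threshold. The 8 adipocyte markers with a row summed to 68.9 to 229 FPKM in controls and 62.9 to 319 FPKM after melatonin.

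Of the other small heat shock protein symbols, CRYAA, the lens crystallin, fell below the filter and HSPB11 stood at 0.21 ± 0.35 on the log2 scale, with an adjusted p of 0.843 in edgeR.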
